A study of Mus musculus with 6 samples.

Results

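The ERVB, ETn and SRV families are the mouse endogenous retroviruses whose names place them beside the betaretroviruses, and 30 of the 363 repeat families counted in this RNA sequencing experiment belong to them. They were gathered by name, as entries that start with ERVB or SRV_MM or hold ETN in upper or lower case. This rule was set with earlier results of these data known. RNA was measured in the testis at postnatal day 20 (P20) from 3 wild-type mice and 3 mice homozygous for Spocd1-dSpin1, the genotype written Spocd1 dSpin/dSpin in the sample labels. This allele replaces part of SPOCD1 with alanines so that the protein no longer binds the chromatin reader SPIN1, and it was made by genome editing in zygotes and set up from 1 founder. All 6 mice shared the mixed B6CBAF1/Crl; C57BL/6N strain background, carried no other allele or treatment named in the labels, and gave 1 testis each. The table counts reads per repeat family and lists no genes, so neither the genotype nor the tissue could be checked against a gene. Whole testis is a mixture of germ cells and somatic cells, and fewer cells of a type and less RNA per cell cannot be told apart in it.

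An endogenous retrovirus is a germline copy of a retroviral genome. An intact copy has an internal part with the retroviral genes, flanked by a pair of long terminal repeats (LTRs) that hold the promoter and the signal for polyadenylation. Recombination between the LTRs often removes the internal part and leaves a solitary LTR. ETn elements, the early transposons, are active in mice but lack retroviral genes, and depend on proteins from coding relatives such as MusD. In fetal male germ cells, piRNAs guide MIWI2 to nascent transposon transcripts, and SPOCD1 acts with MIWI2 in the DNA methylation of young transposons, so the comparison asks whether these retroviral families depend on the contact of SPOCD1 with SPIN1.

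Of the 30 families, 11 are internal entries by their names, 15 are LTR entries, and 4 (MMETN, ETNERV, ETnERV2 and ETnERV3) have names that say neither. The wild-type libraries held 369598 to 499166 reads counted on repeats, and the Spocd1-dSpin1 libraries 842018 to 1013224. Because LINE1 families take a larger share of the mutant libraries, library sizes were corrected with TMM factors, which rest on the families that differ least, and a normalized CPM is a count in the usual CPM unit over the corrected library size. The choice of scaling decides direction for many families here, since scaling by total counts moved the log2 fold change of the tested ERVB, ETn and SRV families by between −1.02 and −1.01. It moved the median over all tested families from −0.039 to −1.05. Over all repeat families counted, mutant replicate 1 stood apart from replicates 2 and 3. The chi-square per degree of freedom was 340 and 291 against each, where replicates 2 and 3 gave 12.1. This measure weighs abundant families most. For ERVB4_1B-I_MM, the most abundant of the 30 families, replicate 2 stood apart instead (32323, 25370 and 32699 normalized CPM in mutant replicates 1, 2 and 3). In the 27 families with enough counts for the test, the spread between replicates as a coefficient of variation had a median of 17.1% in wild type and 7.48% in mutants.

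Levels per length differed widely among the families. In wild type, ERVB4_1B-I_MM, an internal entry of 4288 bases, had 3670 ± 797 normalized CPM per kb, and its LTR entry ERVB4_1B-LTR_MM, of 522 bases, had 3662 ± 989 (SD, n = 3). These were the highest levels per kb of the 27 families and overlapped each other. RLTRETN_MM, the LTR of ETn, followed with 1722 ± 158 normalized CPM per kb, and each of its 3 libraries lay below every library of ERVB4_1B-LTR_MM. It overlapped with ERVB7_1-LTR_MM at 1612 ± 329 normalized CPM per kb. Next in order were ERVB5_2-LTR_MM, MMETN and ERVB4_2B-LTR_MM, at 584 ± 111, 526 ± 49.3 and 499 ± 46.5 normalized CPM per kb, which also overlapped as neighbours. MMETN stands for the ETn element and ETnERV2 and ETnERV3 for related endogenous retroviruses, and in wild type the levels of these were 526 ± 49.3, 94.4 ± 5.60 and 126 ± 3.92 normalized CPM per kb. SRV_MM-int, the internal entry of the SRV family, was near the bottom of the order at 14.9 ± 0.50 normalized CPM per kb, a level that overlapped with those of ERVB2_1A-I_MM and ERVB5_2-I_MM, the families next to it. The lowest was ERVB5_1-I_MM with 2.96 ± 0.63 normalized CPM per kb. The LTR entries ERVB7_4-LTR_MM, ERVB4_3-LTR_MM and ERVB5_1-LTR_MM had too few reads to test, with 2 to 17, 3 to 15 and 0 to 1 reads per library.

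**Figure D1:**
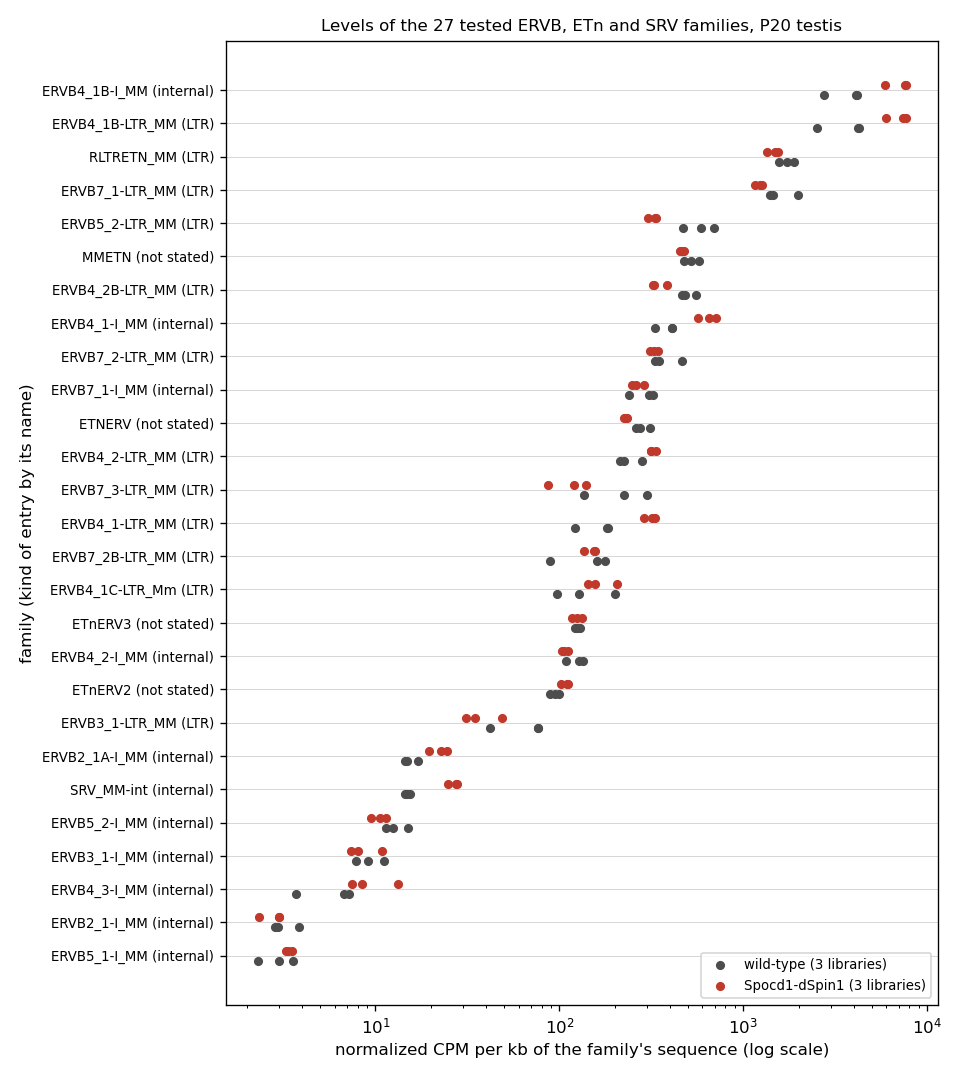
Normalized CPM per kb of each family's sequence (log scale) in every library for the 27 tested families, ordered by the wild-type mean; each point is 1 library. The ERVB4_1B entries lie at the top in both genotypes, with wild-type means of 3670 and 3662. With TMM scaling their mutant libraries lie to the right of the wild-type ones. With total counts for scaling their log2 fold changes were near 0 (−0.072 and −0.077), and neither was called.

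With TMM, 1 of the 27 tested families, SRV_MM-int, rose in Spocd1-dSpin1 mice and 0 fell after Bonferroni adjustment over all 292 families tested with edgeR's quasi-likelihood test. Over all of these, 8.22% passed in either direction (5.48% higher and 2.74% lower). At an unadjusted p under 0.05 there were 16 of the 27, beside 42.5% of all families, and the Wald test of DESeq2 called 5 higher and 1 lower with Bonferroni adjustment, where it called 10.3% of all families higher and 5.82% lower (16.1% in either direction). The Benjamini-Hochberg adjustment in edgeR is less strict, and under it 10 of the 27 passed, with 7 higher and 3 lower, beside 31.5% of all families (15.4% higher and 16.1% lower). The log2 fold changes of the 27 ran from −0.91 to 0.97 with a median of −0.092, against −0.039 over all 292 families. With total counts for scaling, 0 of these families were called higher and 13 lower, beside 1.37% of all families higher and 57.5% lower (58.9% in either direction), and all 12 families with a log2 fold change above 0 with TMM went below 0.

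SRV_MM-int had 88.7, 91.0 and 94.7 normalized CPM in wild type, against 170, 152 and 168 in mutants. The groups did not overlap, which with TMM was also so for 20.9% of all families in this direction, and the coefficient of variation was 3.32% in wild type and 5.95% in mutants. The log2 fold change was 0.83 with TMM (standard error 0.11, Bonferroni-adjusted p = 0.0199 in edgeR) and −0.18 with total counts. The counts behind it were low, at 53, 46 and 69 reads in wild type and 106, 109 and 103 in mutants, and 46 reads carry a counting error of 14.7%. The wild-type replicates thus lay closer together than counting error alone would give, so their spread understates the error. DESeq2 gave a larger standard error, 0.19, on a log2 fold change of 0.87 (Bonferroni-adjusted p = 0.00207). The call was lost when wild-type replicate 1, 2 or 3 or mutant replicate 1 or 3 was left out, with adjusted p-values between 0.0843 and 0.122 in edgeR, and held without mutant replicate 2 (adjusted p = 0.0490 in edgeR). Over those fits its log2 fold change stayed between 0.79 and 0.88. Among all tested families, the count of L1MdF_II, a LINE1 family, followed that of SRV_MM-int most closely over the 6 libraries, at 87.6 to 114 times its count (SD of the log2 ratio 0.15), and the internal entry ERVB4_1-I_MM came next (SD 0.16). These SDs are close to each other and of the size of the counting error of SRV_MM-int, so the order is not firm. The measure also takes in the genotype difference.

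The 4 entries of ERVB4_1 and ERVB4_1B had the highest log2 fold changes in the set together with SRV_MM-int, and they are described together after their values were seen. ERVB4_1B-I_MM, the most abundant of the 30 families, had 17793, 17625 and 11792 normalized CPM in wild type and 32323, 25370 and 32699 in mutants. Every mutant library was above every wild-type library with TMM, and wild-type replicate 3 stood lower than the other two. The log2 fold change was 0.94 with TMM (standard error 0.18), which did not pass the Bonferroni threshold in edgeR (adjusted p = 0.301) but passed with Benjamini-Hochberg adjustment (adjusted p = 0.00626) and in DESeq2 (Bonferroni-adjusted p = 0.000602). With total counts it was −0.072. The value with TMM was 0.77 without wild-type replicate 3 and 0.87 without mutant replicate 1.

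Its LTR entry, ERVB4_1B-LTR_MM, had 2191, 2227 and 1316 normalized CPM in wild type and 3833, 3110 and 3986 in mutants. The libraries took the same order as for the internal entry in mutants, and wild-type replicate 3 was again the lowest. With TMM the log2 fold change was 0.93 (standard error 0.20, Bonferroni-adjusted p = 0.515 and Benjamini-Hochberg-adjusted p = 0.00954 in edgeR), and −0.077 with total counts. It passed in DESeq2 (Bonferroni-adjusted p = 0.00876). Of all tested families, this LTR kept the closest ratio to the internal entry, with 0.112 to 0.126 times its count in every library (SD of the log2 ratio 0.062).

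ERVB4_1-I_MM, an internal entry of 8316 bases, had 3408, 3389 and 2750 normalized CPM in wild type and 5931, 4721 and 5411 in mutants, again without overlap between the genotypes. Its log2 fold change was 0.75 with TMM (standard error 0.12, Bonferroni-adjusted p = 0.0712 in edgeR) and −0.26 with total counts. It passed the Bonferroni threshold in DESeq2 (adjusted p = 4.18e-05), and in edgeR with no filter on low counts (adjusted p = 0.0491) or with TMM factors from families not named L1 (adjusted p = 0.0289). ERVB4_1-LTR_MM, of 521 bases, had 95.4, 95.0 and 63.1 normalized CPM in wild type and 165, 173 and 150 in mutants. It too separated the genotypes with TMM, and the log2 fold change was 0.97 (standard error 0.17, adjusted p = 0.139 in edgeR and 0.00370 in DESeq2, both Bonferroni) against −0.041 with total counts. The table does not say how reads that match several families were assigned, so counts of the ERVB4_1 and ERVB4_1B entries may share reads and cannot be taken as independent measurements. The third LTR of this name, ERVB4_1C-LTR_Mm, had 50.2 to 103 normalized CPM in wild type and 73.5 to 106 in mutants, which overlapped (log2 fold change 0.29, standard error 0.27, with TMM, and −0.72 with total counts).

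**Figure D2:**
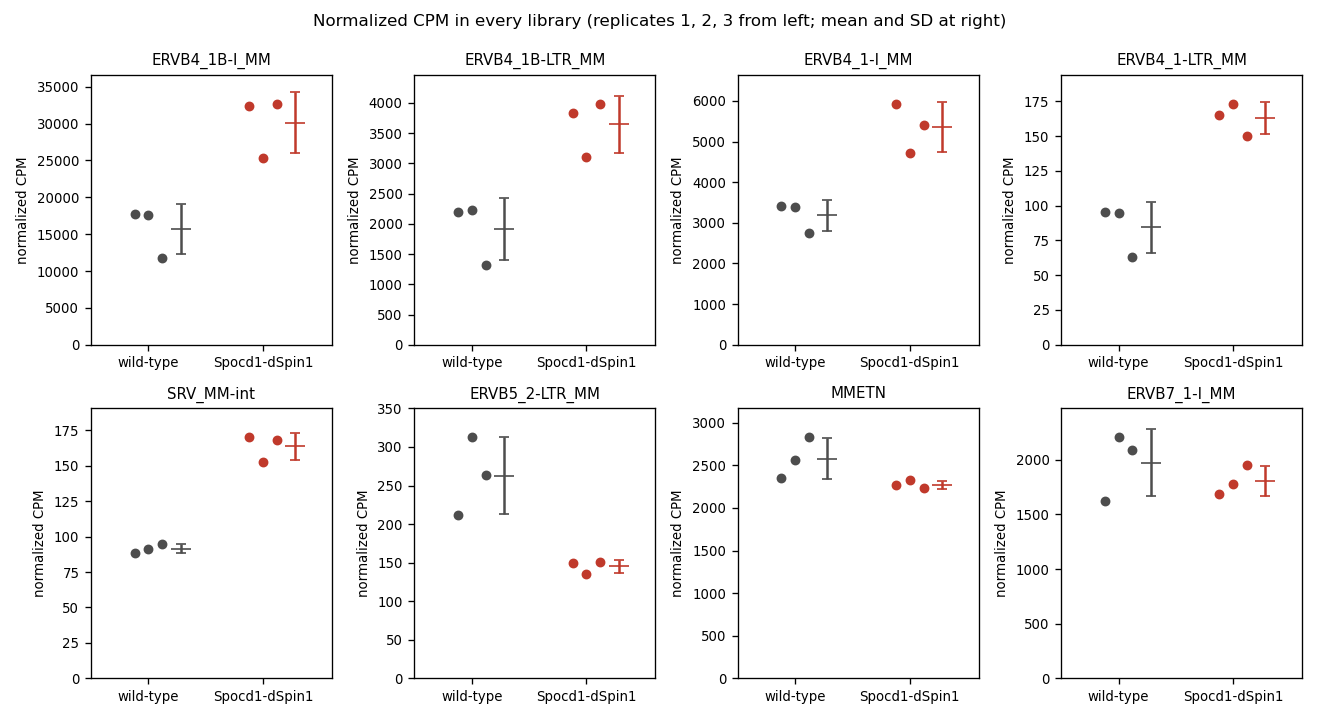
Normalized CPM in each of the 6 libraries for 8 families, each panel with its own axis from 0; points are replicates 1, 2 and 3 from the left, and the dash with bars gives the mean and SD of 3 libraries. With TMM the mutant libraries lie above the wild-type ones for the 4 ERVB4_1 and ERVB4_1B entries and SRV_MM-int. They lie below them for ERVB5_2-LTR_MM and MMETN, while ERVB7_1-I_MM overlaps. With total counts for scaling, the log2 fold changes of the ERVB4_1 and ERVB4_1B entries and SRV_MM-int were between −0.26 and −0.041, and none was called.

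A pair of further ERVB families were higher in mutants with Benjamini-Hochberg but not Bonferroni adjustment. ERVB2_1A-I_MM, an internal entry, had 105, 103 and 121 normalized CPM in wild type and 160, 172 and 139 in mutants, and the log2 fold change was 0.51 with TMM (standard error 0.13, Benjamini-Hochberg-adjusted p = 0.0187 in edgeR) and −0.50 with total counts. ERVB4_2-LTR_MM had 119, 156 and 124 normalized CPM in wild type and 185, 173 and 175 in mutants, and the log2 fold change was 0.43 with TMM (standard error 0.13, Benjamini-Hochberg-adjusted p = 0.0331 in edgeR) and −0.58 with total counts. In both, the genotypes did not overlap with TMM. Over the 9 tested ERVB4 families, 5 passed with Benjamini-Hochberg adjustment as higher and 1 as lower, beside 15.4% and 16.1% of all families. The median log2 fold change of the 9 was 0.69 with TMM. Those higher include the internal and LTR entries of ERVB4_1 and ERVB4_1B, whose counts may share reads and cannot be taken as independent.

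Of the 3 families that were lower with Benjamini-Hochberg adjustment, 2 were LTR entries and the other was ETNERV. ERVB5_2-LTR_MM had 212, 313 and 263 normalized CPM in wild type and 149, 136 and 150 in mutants, without overlap, as in 25.0% of all families in this direction with TMM. Its log2 fold change was −0.85 with TMM (standard error 0.15, Bonferroni-adjusted p = 0.147 in edgeR) and −1.87 with total counts. DESeq2 called it lower (Bonferroni-adjusted p = 0.00714), as did edgeR when wild-type replicate 1 was left out (adjusted p = 0.0347). Its internal partner ERVB5_2-I_MM had 91.9 to 122 normalized CPM in wild type and 76.8 to 92.3 in mutants, which overlapped (log2 fold change −0.30, standard error 0.15).

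ERVB4_2B-LTR_MM had 236, 281 and 246 normalized CPM in wild type and 196, 165 and 167 in mutants, which did not overlap. Its log2 fold change was −0.53 with TMM (standard error 0.11, Benjamini-Hochberg-adjusted p = 0.00933 and Bonferroni-adjusted p = 0.494 in edgeR) and −1.54 with total counts. ERVB7_3-LTR_MM had the lowest log2 fold change of the set, −0.91 with TMM, but a standard error of 0.31, because it rested on 22 to 67 reads and ranged from 55.2 to 123 normalized CPM in wild type against 35.3 to 57.2 in mutants. ERVB3_1-LTR_MM was similar, at −0.75 on the log2 scale (standard error 0.31) on 10 to 29 reads. Neither passed with either adjustment in edgeR with TMM.

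The ETn group has 5 entries, with log2 fold changes between −0.30 and 0.19 with TMM and between −1.31 and −0.82 with total counts. ETNERV had 913, 1037 and 863 normalized CPM in wild type and 740, 777 and 762 in mutants, without overlap. The log2 fold change was −0.30 with TMM (standard error 0.083, Benjamini-Hochberg-adjusted p = 0.0272 and Bonferroni-adjusted p = 1 in edgeR) and −1.31 with total counts. MMETN, the most abundant ETn entry, had 2347, 2562 and 2830 normalized CPM in wild type and 2266, 2327 and 2234 in mutants. These did not overlap either, but lay close, and the log2 fold change of −0.18 (standard error 0.080) did not pass with either adjustment. RLTRETN_MM was similar, at −0.24 (standard error 0.094). ETnERV3 had 710 to 755 normalized CPM in wild type and 677 to 766 in mutants, and its log2 fold change of −0.013 (standard error 0.073) turned sign with other scalings. ETnERV2 had 656 to 738 normalized CPM in wild type and 758 to 828 in mutants, which gave 0.19 on the log2 scale with TMM (standard error 0.075, Benjamini-Hochberg-adjusted p = 0.0876 in edgeR) and −0.82 with total counts. All 5 ETn entries were among the 13 called lower with total counts, a scaling that called 57.5% of all families lower. ERVB7_1-I_MM, ERVB7_1-LTR_MM, ERVB7_2-LTR_MM and ERVB7_3-LTR_MM were also among the 13.

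The 5 tested ERVB7 families had log2 fold changes from −0.91, that of ERVB7_3-LTR_MM, to 0.036 with TMM, and 0 of them passed with either adjustment. ERVB7_1-I_MM, the most abundant, had 1624, 2206 and 2086 normalized CPM in wild type and 1688, 1777 and 1956 in mutants, which overlapped (log2 fold change −0.13, standard error 0.12). ERVB7_1-LTR_MM was lower without overlap, at 445 to 635 against 369 to 401 normalized CPM, but did not pass (log2 fold change −0.40, standard error 0.14, Benjamini-Hochberg-adjusted p = 0.0590 in edgeR). ERVB7_2-LTR_MM and ERVB7_2B-LTR_MM had log2 fold changes of −0.20 and 0.036 with TMM (standard errors 0.15 and 0.24), the latter −0.98 with total counts. ERVB4_2-I_MM, an internal entry with 866 to 1123 normalized CPM, had −0.21 (standard error 0.092). The remaining internal entries, ERVB4_3-I_MM, ERVB5_1-I_MM, ERVB3_1-I_MM and ERVB2_1-I_MM, rested on 10 to 70 reads per library and had log2 fold changes of 0.69, 0.22, −0.092 and −0.20 with TMM, none of which passed with either adjustment. With total counts the first pair were −0.33 and −0.79.

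**Figure D3:**
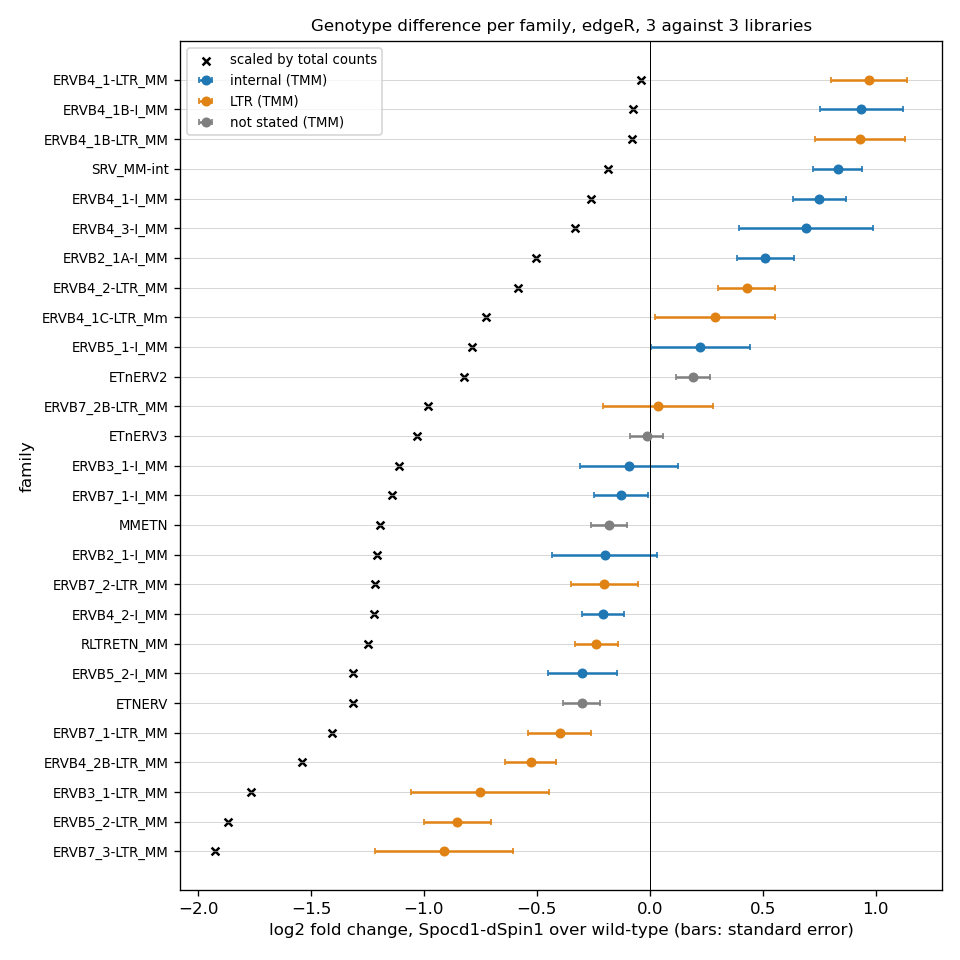
Log2 fold change of Spocd1-dSpin1 over wild-type for the 27 tested families, as circles with the standard error for TMM scaling, coloured by the kind of entry, and as crosses for scaling by total counts. With TMM the values run from −0.91 to 0.97, and with total counts every family lies below 0, since each moved by between −1.02 and −1.01.

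Because the ERVB4_1B entries are so abundant, they set the total of the group. Summed over the 30 families, the level was 33007, 34531 and 26824 normalized CPM in wild type and 51707, 42929 and 51902 in mutants. The ERVB4_1B entries took 55.6% ± 6.06 of the counts of the 30 families in wild type and 69.0% ± 2.32 in mutants, a share that needs no scaling between libraries (SD, n = 3). The 5 ETn entries took 17.8% ± 3.18 and 10.4% ± 1.23, and SRV_MM-int took 0.295% ± 0.050 and 0.336% ± 0.017. The 26 families outside ERVB4_1 and ERVB4_1B summed to 10539 ± 894 normalized CPM in wild type and 9555 ± 101 in mutants.

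**Figure D4:**
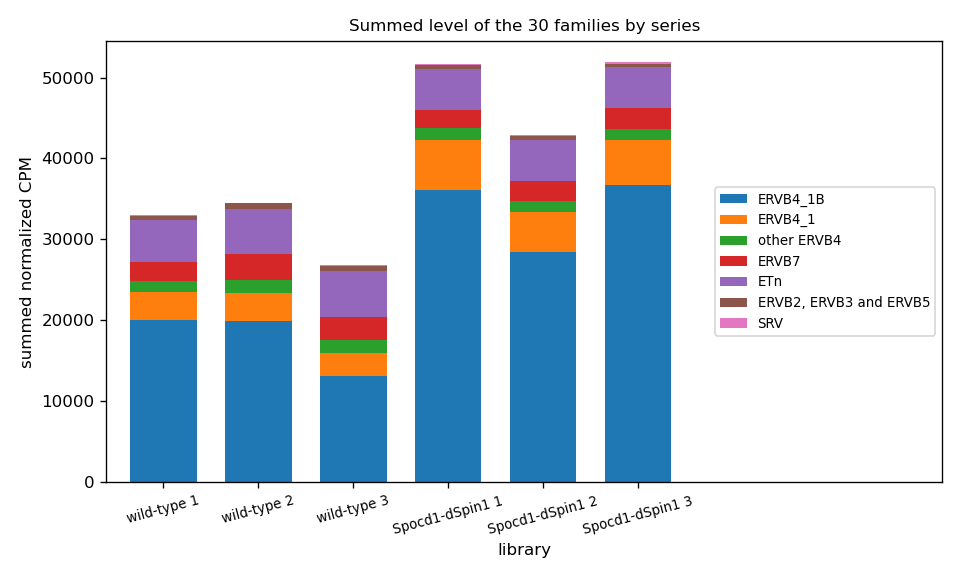
Summed normalized CPM of the 30 families in each library, stacked by the series in their names. The ERVB4_1B part differs most between libraries, from 13108 in wild-type replicate 3 to 36685 in mutant replicate 3 with TMM scaling, while the ETn part stays between 5010 and 5740.

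Of all reads counted on repeats, the 30 families took 4.74%, 4.72% and 3.92% in wild type and 3.83%, 3.03% and 3.46% in mutants, a difference of −1.02 percentage points (p = 0.1 by exact permutation of the 6 libraries, two-sided, which is the lowest p this design can give), or −1.21 without mutant replicate 1. Of the reads outside families named L1, they took 8.02% ± 0.65 and 10.2% ± 0.99 (SD, n = 3), a difference of 2.15 percentage points in the opposite direction (exact permutation test, p = 0.1). The direction of the share thus turned with the denominator.

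The families were also set against the IAP families, the other large group of class II endogenous retroviruses in the table. The log2 ratio of the summed counts of the 30 families to those of the 32 IAP families was −1.04, −1.20 and −1.39 in wild type and −0.81, −0.84 and −0.50 in mutants. All mutant ratios were above all wild-type ratios, by 0.49 on average (p = 0.1 by two-sided exact permutation, again the lowest attainable), and by 0.54 without mutant replicate 1. This difference rested on the abundant ERVB4_1B entries, since without them, an alternative chosen after the data were seen, the ratio was −2.39 ± 0.041 in wild type and −2.41 ± 0.14 in mutants (SD, n = 3; difference −0.020, exact permutation test, p = 0.8). With TMM, 5.48% of all families passed the Bonferroni threshold as higher and 2.74% as lower. Among the 32 IAP families, 3 passed as higher and 1 as lower. Their median log2 fold change was 0.31, where the median of the 27 families was −0.092. Of the 8 families named MMERVK10C or RLTR10, 2 passed as higher and 1 as lower. Their median was −0.011 and their highest value 2.67, against 0.97 for the highest of the ERVB, ETn and SRV families. The medians of these related lists were taken with TMM only.

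Internal and LTR entries were compared within each library, where no scaling enters. Over all entries whose names say which they are, the log2 ratio of summed internal to summed LTR counts was 2.36 to 2.55 in the 3 wild-type libraries and 2.74 to 2.85 in the 3 mutant ones. The mutant ratios were all higher, by 0.37 (p = 0.1 by two-sided exact permutation, again the lowest attainable), or 0.35 without mutant replicate 1. With MMETN, ETNERV, ETnERV2 and ETnERV3 assigned by their length, the difference was 0.24 (exact permutation test, p = 0.1). Without the ERVB4_1B entries, which was tried after the data were seen, the difference was 0.61 (exact permutation test, p = 0.1). A ratio of sums follows its most abundant entries. Among the internal entries left, ERVB4_1-I_MM had the most reads, 1713 to 2037 in wild type, with a log2 fold change of 0.75 with TMM. With Benjamini-Hochberg adjustment in edgeR, 15.4% of all families passed as higher and 16.1% as lower. Of the 11 tested internal entries, 4 passed as higher and 0 as lower. Of the 12 tested LTR entries, 3 passed as higher and 2 as lower. Medians of the log2 fold change were 0.22 for internal and −0.22 for LTR entries with TMM, a contrast that was not tested.

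Elements that have an internal and an LTR entry differed widely in how densely reads covered each. For ERVB4_1B, the count per kb on the LTR was 0.92 to 1.04 times that on the internal entry in the 6 libraries, so coverage per length was nearly even. For ERVB4_1 it was 0.37 to 0.59 times. In other elements the LTR entry was the denser one. The ratio was 4.03 to 6.15 for ERVB7_1 and 3.19 to 9.76 for ERVB3_1. For ETn (RLTRETN_MM over MMETN) it was 2.95 to 3.60. MMETN was used there as the internal entry although its name does not say so, so this ratio may not compare an LTR with an internal part. The ratio was highest for ERVB5_2, at 31.2, 55.6 and 51.4 in wild type and 31.5, 26.4 and 35.1 in mutants.

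Of the 7 elements compared in this way, only ERVB4_2 had ratios that did not overlap between the genotypes. They were 1.67 to 2.20 in the 3 wild-type libraries and 2.95 to 3.06 in the 3 mutant ones, a difference of 0.63 on the log2 scale (p = 0.1 by two-sided exact permutation, Benjamini-Hochberg-adjusted p = 0.525 over 7 elements). For ERVB4_1B the difference was 0.0096, within the spread between replicates (exact permutation test, p = 1). For ERVB4_1 it was 0.22 (exact permutation test, p = 0.6) and for ETn −0.059 (exact permutation test, p = 0.6). For ERVB3_1, ERVB5_2 and ERVB7_1 it was −0.64, −0.54 and −0.27 (exact permutation tests, p = 0.3, 0.3 and 0.2). The elements ERVB4_3 and ERVB5_1 were left out because their LTR entries had too few reads.

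**Figure D5:**
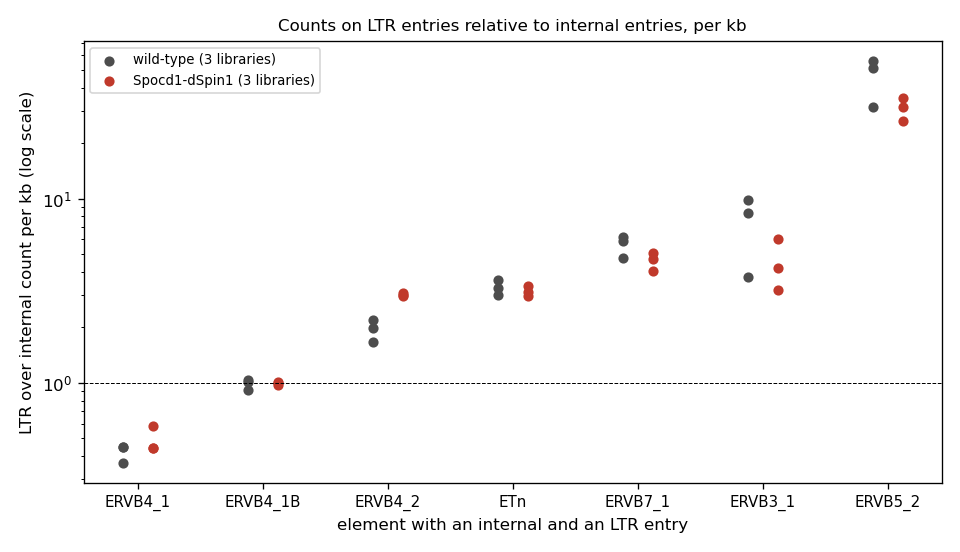
Count per kb on the LTR entry divided by count per kb on the internal entry (log scale) for 7 elements, 1 point per library. For ETn, MMETN was used as the internal entry although its name does not say so. The dashed line marks equal density. ERVB4_1B lies at the line in both genotypes, ERVB5_2 lies highest, and ERVB4_2 is the element whose genotypes do not overlap, with 1.67 to 2.20 in wild type and 2.95 to 3.06 in mutants.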

How the data were processed

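RNA from 1 testis of each of 6 mice was depleted of ribosomal RNA and made into stranded libraries. The authors deposited raw read counts per repeat family for each library, not normalized or pooled, with a sequence length for every family. The submitters' processing notes name cutadapt 1.18, Bowtie2 2.4.2 and the build mm10; how reads matching several families were counted, and the strand setting, are not given in the sources used here. A row named for Bowtie2, with 0 in every library, was left out. Libraries were matched by column name to the sample labels.

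All families of the deposited table were tested together by the quasi-likelihood test of edgeR (version 4.0.16, R 4.3.3), two-sided and with no covariate, after TMM and filterByExpr by genotype, which left 292 of 363 families. Bonferroni adjustment at 0.05, as in the paper, covered all 292. The paper's tool, DESeq2 (1.42.0, Wald test), was an alternative. The edgeR standard errors are the fold change over the root of its F. Ratios and shares were tested by exact permutation over libraries (scipy 1.17.1). Both fits were first run on simulated counts of 363 families, 40 of them changed 4-fold, and edgeR and DESeq2 each called 40 of the 40 and 0 of 270 others. The simulation gave every family the same dispersion, changed families equally up and down, and held no shift of LINE1. Its changes were larger than any in the tested ERVB, ETn and SRV families. It therefore cannot show how the fits treat smaller changes or the choice of scaling. Counting errors cover counting only, since PCR reads are not independent molecules. Replicates differed by more than sampling noise (chi-square per degree of freedom 8.64 or more), so all 6 were kept as separate samples. The labels do not state litters, so the p-values cannot account for a litter or batch shared within a genotype. The members, lists and rules were chosen with earlier results of these data known. Every member is named, with full statistics for those passing the threshold or Benjamini-Hochberg adjustment and the most abundant, and for called families the family closest in count ratio.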

Additional observations from a re-analysis of the deposited data

How the results depend on the processing

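Across the 27 families tested, 14 alternatives gave 378 values, of which 323 kept both direction and call, 6 lost the call, 29 gained a call and 20 turned direction. Total counts accounted for 12 of the 20, with log2 fold changes of −0.26 for ERVB4_1-I_MM, −0.072 for ERVB4_1B-I_MM, −0.50 for ERVB2_1A-I_MM, −0.79 for ERVB5_1-I_MM, −0.72 for ERVB4_1C-LTR_Mm, −0.077 for ERVB4_1B-LTR_MM, −0.33 for ERVB4_3-I_MM, −0.82 for ETnERV2, −0.98 for ERVB7_2B-LTR_MM, −0.18 for SRV_MM-int, −0.041 for ERVB4_1-LTR_MM and −0.58 for ERVB4_2-LTR_MM. The near-zero value of ETnERV3 turned to 0.020 with DESeq2's Wald test, 0.020 with DESeq2's size factors in edgeR and 0.058 with TMM factors from families not named L1. With a library left out, ETnERV3 ranged from −0.033 to 0.021 and was above 0 without wild-type replicate 3 (0.016) or mutant replicate 1, ERVB3_1-I_MM ranged from −0.25 to 0.057 and was above 0 without wild-type replicate 1, and ERVB7_2B-LTR_MM ranged from −0.18 to 0.20 and was below 0 without wild-type replicate 2 or mutant replicate 1 (−0.010). The number called higher, 1 in the test reported, was 5 with DESeq2, 0 with total counts, 2 of 27 with TMM factors from families not named L1 (10.6% of all families called in either direction), 2 of 30 with no filter (8.36% of all), 7 with Benjamini-Hochberg adjustment and 0 to 1 with each library left out (4.49% to 9.43% of all families in either direction). The number called lower, 0 in the test reported, was 1 with DESeq2, 13 with total counts, 3 with Benjamini-Hochberg adjustment and 0 to 1 with each library left out. With the replicate number as a block, 0 were called higher and 0 lower (4.79% of all families called), with 14 of 27 at an unadjusted p under 0.05 (40.1% of all), and SRV_MM-int had an adjusted p of 0.142 in edgeR. Same-numbered libraries did not deviate together (correlations of 0.083, 0.0080 and −0.14 over families), and differently numbered ones gave −0.11 to 0.13. These correlations cannot exclude a shared litter or batch, and the labels do not state litters. Pairing by replicate number cannot change the mean difference of the ratios and shares, so its direction says nothing about robustness. The exact sign-flip test gave p = 0.25, the smallest possible. The share of all counts differed by 2.15 percentage points with families not named L1 as the denominator, against −1.02. Without the ERVB4_1B entries the log2 ratio to IAP families differed by −0.020, against 0.49, and with unstated entries assigned by length the internal to LTR difference was 0.24, against 0.37. With each library left out, the internal to LTR difference was 0.33 to 0.43, the difference to IAP families 0.38 to 0.58 and the share difference −1.29 to −0.82. The cause of these differences was not tested. Families under about 50 reads in a library have counting errors above 14%, which limits what can be called for them.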
